A study of Danio rerio with 13 samples.

Results

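Enteroendocrine cells (EECs) are the hormone-producing cells of the gut epithelium, and the data described here ask what the loss of pax6b changes in them. The comparison holds 7 of the 13 samples of the series: 4 wild-type and 3 pax6b mutant EEC preparations of zebrafish larvae at 4 days post fertilization (dpf), chosen by tissue and genotype and not by any measured value. The other 6 samples are pancreatic endocrine cells and entered only 1 alternative fit. All fish carried Tg(pax6b:GFP)ulg515, a transgene in which pax6b regulatory DNA drives GFP, and the labels give the strain as AB. The wild-type larvae were Tg(pax6b:GFP)ulg515 with no mutant allele named. Mutant larvae came from crosses between heterozygous carriers of the null allele pax6b sa0086, and homozygotes were picked by a missing or reduced lens. The wild types are not described as their siblings. Each preparation pooled the dissected guts of about 200 larvae, and GFP+ cells, about 3000 for a preparation, were taken through 2 rounds of FACS. The sort itself thus rests on pax6b regulatory DNA, and bulk RNA cannot tell fewer cells of a subtype from less RNA per cell.

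EECs arise from progenitors of the gut epithelium and secrete peptide hormones or serotonin in response to luminal contents. Each hormone is made by a subset of EECs. Pax6 is a paired-box and homeodomain transcription factor that in mammals acts in endocrine cells of gut and pancreas, where it is known for its part in hormone gene transcription. Zebrafish have the paralogs pax6a and pax6b.

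The samples held 22423938 to 61512908 counts, and 3 counts, the smallest level taken as detected, equalled 0.0488 to 0.134 CPM (counts of a gene scaled to a fixed total of counts per sample). These floors cover counting error only. Wild-type replicates 3 and 4 stood apart. On the first 2 principal components of the 500 most variable genes (50.3% and 22.0% of their variance), the genotypes separated on component 1, with wild types at -48.3 to -12.0 and mutants at 31.2 to 40.5. On component 2, wild-type replicate 3 lay at -43.2 and replicate 4 at 38.7, with the other 5 samples between -7.85 and 9.04. Pairs of mutant samples correlated at 0.939 to 0.946 in log CPM over genes, and pairs of wild-type samples at 0.878 to 0.956. Pairs of a wild-type and a mutant sample lay at 0.870 to 0.934, which overlaps the wild-type range. Transcripts of 2 genes without a symbol took 1.57% to 10.5% of the counts in wild types and 6.95% to 15.13% in mutants. The EEC marker list was present in all samples, with a summed level of 8133 to 8843 CPM in wild types and 9398 to 10563 CPM in mutants.

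Of 19066 genes tested by edgeR's quasi-likelihood test on the 7 samples, 802 (4.21%) passed a Benjamini-Hochberg adjusted p of 0.1 and are referred to here as called. In mutants, 341 of them (1.79% of those tested) were higher and 461 (2.42%) were lower. A fit of only the genes with at least 5 CPM in 3 samples called 758 of 10650, a larger share. Lists of well-expressed genes are to be read beside that share too. The median log2 fold change over all genes tested, always mutant over wild type, was -0.0025. In 777 of the 802, no mutant sample overlapped a wild-type sample in CPM, against 2954 non-overlapping genes (15.5%) among all tested. Leaving out 1 sample reduced the calls to between 322 and 780, lowest without mutant replicate 2 and 345 without mutant replicate 1, and 234 genes were called in the fit of all 7 samples and in each of the 7 leave-one-out fits.

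**Figure D1:**
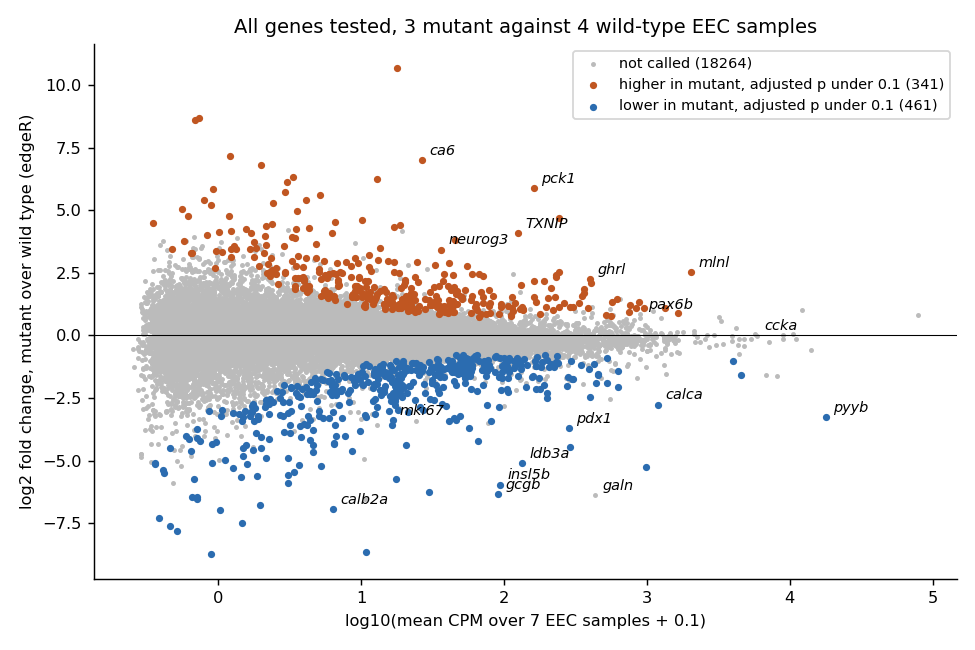
Log2 fold change (mutant over wild type, edgeR) of each of the 19066 genes tested against its mean CPM over the 7 EEC samples on a log10 scale, with 341 genes higher in mutants in orange, 461 lower in blue and the rest in grey. Among hormone genes, pyyb lies at the high-level end of the called falls and mlnl at the high-level end of the called rises, while ccka lies near 0 and galn is low but not called.

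The targeted gene itself was not lowered. pax6b (ENSDARG00000045936) was at 557, 735, 466 and 807 CPM in wild-type replicates 1 to 4 and at 1028, 1249 and 1473 CPM in mutant replicates 1 to 3, the order used for all sample values below. Every mutant sample exceeded every wild-type sample, with a log2 fold change of 0.85 (SE 0.25) that narrowly missed the threshold (adjusted p = 0.102). Without wild-type replicate 4, its highest wild-type sample, the value was 1.03 and passed (adjusted p = 0.0278). A second tool, DESeq2, called the rise with all 7 samples (adjusted p = 0.0893). The count of this transcript therefore does not check the genotype labels. The paper reports a check by another route, the sequence of the reads. Among pax6b reads from mutant libraries it found only the null allele. The gene counts used here cannot repeat that check. The paralog pax6a (ENSDARG00000103379) stayed between 0.0387 to 0.446 CPM in wild types and 0.21 to 0.491 CPM in mutants (log2 fold change 0.73, SE 0.97, adjusted p = 0.797).

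Hormone genes were among the most altered. Of 24 listed EEC hormone genes, 22 were tested, 5 rose, 5 fell and 12 were not called, so 45.5% were called against 4.21% of all genes tested. Their median log2 fold change was -1.51, beside -0.0025 over all genes tested. The study had picked adcyap1a, calca and penka as hormone genes for their high levels in its wild-type EECs. For these genes the share called and the median are not independent of the wild-type values. None of the 10 called genes had overlapping groups, which also holds for 777 of all 802 called genes.

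The 5 falls include the hormone gene with the most counts. pyyb (ENSDARG00000035832), a gene of the satiety hormone Peptide YY, was at 29657, 32919, 29822 and 23382 CPM in wild types and 3556, 2649 and 3392 CPM in mutants. This was a 9.68-fold lower level (log2 -3.27, SE 0.22, adjusted p = 4.80e-06). gcgb (ENSDARG00000040907), a proglucagon gene, whose precursor also yields glucagon-like peptides, was at 163, 263, 49.99 and 159 CPM in wild types and at 2.76, 1.68 and 1.69 CPM in mutants. The mutant samples lay close together and 81.2-fold lower (log2 -6.34, SE 0.55, adjusted p = 7.01e-05). insl5b (ENSDARG00000069294), for an insulin-like peptide, went from 49.1, 185, 199 and 217 CPM to 0.945, 3.96 and 3.7 CPM. Wild-type replicate 1 was its lowest wild-type sample, still far above the mutants (log2 -5.96, SE 0.73, adjusted p = 0.00283). calca (ENSDARG00000056590), which encodes calcitonin and the calcitonin gene-related peptide, was at 1450.1, 1847, 1913 and 2279 CPM against 339, 379.9 and 163 CPM, a 6.8-fold fall (log2 -2.77, SE 0.34, adjusted p = 8.89e-04). adcyap1a (ENSDARG00000004015), a gene for the neuropeptide PACAP, fell less, from 3949.8, 6770.1, 5967 and 8491 CPM to 2118, 2529 and 2183 CPM (log2 -1.58, SE 0.29, adjusted p = 0.00959).

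Another set of hormone genes rose. mlnl (ENSDARG00000092916), for a motilin-like peptide related to the motility hormone motilin, was at 669, 608, 843 and 447 CPM in wild types and 3589, 5046 and 3075 CPM in mutants. It was 5.74-fold higher, and the lowest mutant sample was well above the highest wild-type sample (log2 2.52, SE 0.27, adjusted p = 3.11e-04). ghrl (ENSDARG00000054239), encoding the appetite-stimulating hormone ghrelin, moved from 136, 181, 179 and 94.4 CPM to 768, 842 and 621 CPM, 4.76-fold higher (log2 2.25, SE 0.26, adjusted p = 6.71e-04). sst2 (ENSDARG00000014190), a somatostatin precursor gene, was at 48.7, 74.8, 168 and 84 CPM in wild types, highest in replicate 3, and at 367, 411 and 346 CPM in mutants (log2 1.89, SE 0.36, adjusted p = 0.0129). The PACAP paralog adcyap1b (ENSDARG00000027740) rose from 4.81, 7.47, 8.6 and 3.48 CPM to 39.6, 53.6 and 55 CPM (log2 2.93, SE 0.33, adjusted p = 5.38e-04). Thus adcyap1a and adcyap1b moved in opposite directions. In the study, adcyap1a is described as a transcript of EECs and adcyap1b as one of enteric neurons. The study found most EEC hormone genes far higher in EECs than in enteric neurons, but excepted sst2, sst1.2 and vipb. Which cells hold the added adcyap1b and sst2 RNA was not tested. penkb (ENSDARG00000036045), a proenkephalin gene, was at 2.96, 2.83, 0.226 and 2.01 CPM and then at 21.4, 18.4 and 15.3 CPM (log2 3.11, SE 0.59, adjusted p = 0.0128). All 10 hormone calls held when any 1 of the 7 samples was left out.

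The 12 hormone genes that were not called fall into several patterns. ccka (ENSDARG00000070810), for the satiety and gallbladder hormone cholecystokinin, was at 5547, 7559.8, 3651 and 6332 CPM in wild types and 6248, 6782 and 5355 CPM in mutants, fully overlapping (log2 -0.004, SE 0.25). Its fold change of nearly 0 took either sign in the alternative fits. gcga, the other proglucagon gene, was at 1052, 1954, 2343 and 2133 CPM in wild types and 1634, 892 and 1382 CPM in mutants (log2 -0.64, SE 0.31, adjusted p = 0.357). insl5a was at 2171, 3017, 7416 and 7926 CPM and 3709, 3714 and 2763 CPM (log2 -0.73, SE 0.45, adjusted p = 0.511). For both, the called paralog, gcgb or insl5b, lay at the low end of the hormones by log2 fold change, but the difference between paralogs was not tested.

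Several uncalled hormone genes varied widely between samples of the same genotype. galn (ENSDARG00000091377), which encodes the neuropeptide galanin, was at 370.2, 475, 1217 and 953 CPM in wild types and at 28.3, 0.18 and 0.624 CPM in mutants. No mutant sample reached a wild-type one, but mutant replicate 1 was far above the other mutants, and the fall was not called (log2 -6.38, SE 1.96, adjusted p = 0.208). Across the leave-one-out fits its log2 fold change ran from -11.1 to -5.8 and its adjusted p from 1.25e-04 to 0.341. vipb, for vasoactive intestinal peptide, was at 176, 489, 1342 and 1397 CPM in wild types, with replicates 3 and 4 high, and 105, 241 and 139 CPM in mutants (log2 -2.53, SE 0.76, adjusted p = 0.16). pyya was at 148, 301, 268 and 883 CPM in wild types, where replicate 4 was the highest, and 119.6, 117 and 149 CPM in mutants (log2 -1.79, SE 0.56, adjusted p = 0.156). Without that replicate its log2 fold change was -0.97 and was called (adjusted p = 0.0855). penka, the proenkephalin paralog of penkb, was at 5158, 12879.7, 11307 and 16273 CPM in wild types and 4357, 5735 and 1742 CPM in mutants, and missed the threshold (log2 -1.63, SE 0.48, adjusted p = 0.121). DESeq2, run on the same 7 samples, called all 4, with adjusted p of 9.21e-04 for galn, 0.00169 for vipb, 0.0205 for pyya and 0.0212 for penka. nmbb, for neuromedin B, had log2 -0.72 (SE 0.40) and its paralog nmba log2 -1.78 (SE 1.24), with overlapping groups. gip, the incretin gene, ranged from 0.452 to 162 CPM in wild types and 5.46 to 127 CPM in mutants. sst1.1 was at 6.99, 0.863, 65.8 and 0 CPM in wild types and 0.501, 0.030 and 0 CPM in mutants, and sst1.2 had a log2 fold change of -1.44 (SE 0.75, adjusted p = 0.437). VIP and NTS, genes for vasoactive intestinal peptide and neurotensin spelled in capitals in the reference gene list, were too low to test, with at most 3.51 CPM and 0.312 CPM in any sample.

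As a sum of counts, the 24 hormone genes made up 5.19%, 7.18%, 6.83% and 7.48% of all gene counts in wild types and 2.83%, 3.11% and 2.26% in mutants. The groups did not overlap. Without pyyb the sums were 22226, 38883, 38504 and 51395 CPM in wild types and 24724, 28453 and 19189.6 CPM in mutants, which overlapped.

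**Figure D2:**
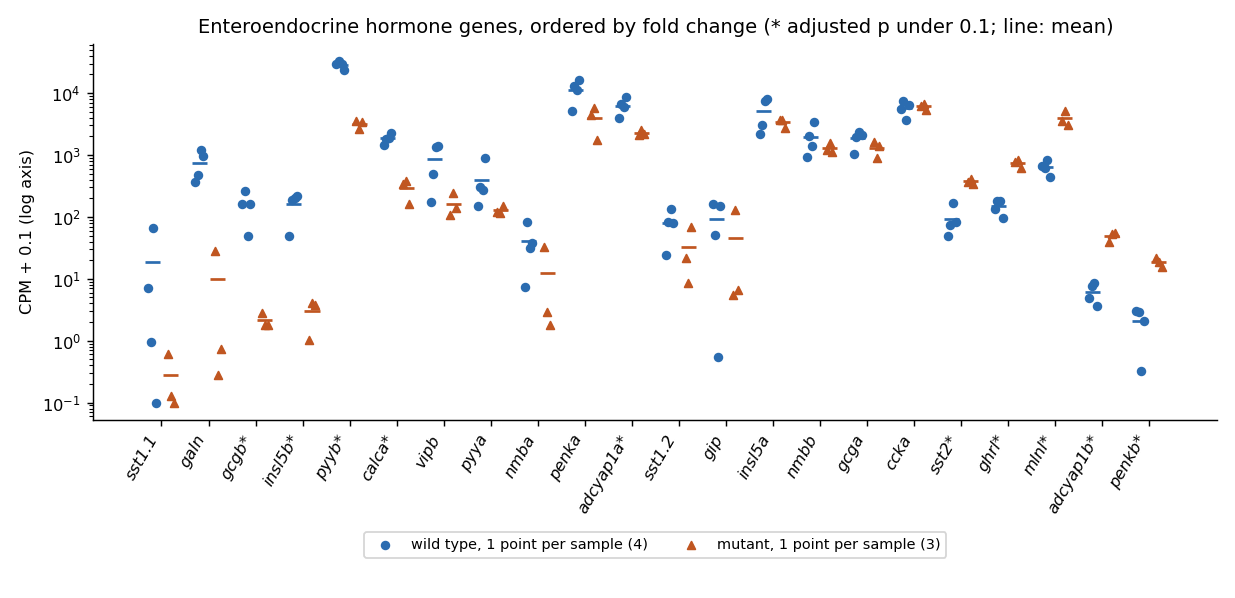
CPM + 0.1 on a log axis of the 22 hormone genes tested, 1 blue circle for each of the 4 wild-type samples and 1 orange triangle for each of the 3 mutant samples, with lines at the means and asterisks on genes called at an adjusted p under 0.1. Genes are ordered by log2 fold change. The 5 called falls lie among uncalled genes in the left part, and the 5 called rises are at the right end, all without overlap. The 2 leftmost genes, sst1.1 and galn, are not called, and they, vipb and gip show wide spreads within a genotype.

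Transcription factors of endocrine differentiation mostly rose where they changed. Of 20 listed, 6 were higher, 1 was lower and 13 were not called (35% called, against 4.21% of all genes), and their median log2 fold change was 0.45. The exception was pdx1 (ENSDARG00000002779), a homeodomain factor of the pancreas and anterior gut, at 397, 356, 471 and 649.9 CPM in wild types and 22.7, 28.4 and 68.4 CPM in mutants. It fell 13-fold (log2 -3.7, SE 0.41, adjusted p = 5.35e-04), and this held when any 1 sample was left out.

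Among the rises, pax4 (ENSDARG00000021336), a paired-box factor of endocrine subtype choice in the mouse, was at 170.2, 227, 139 and 171 CPM in wild types and 410.1, 665 and 746 CPM in mutants (log2 1.68, SE 0.25, adjusted p = 0.00338). insm1a (ENSDARG00000091756), for a zinc finger factor of endocrine and neuronal differentiation, moved from 90.7, 112, 124 and 60.1 CPM to 230.1, 278 and 276 CPM (log2 1.34, SE 0.25, adjusted p = 0.0128). rfx6, which in the mouse and human acts in islet formation, was at 11.5, 13.5, 7.21 and 10.03 CPM and 47.6, 33.9 and 19 CPM (log2 1.59, SE 0.34, adjusted p = 0.0271), and its call was lost without mutant replicate 1 or 2 (adjusted p up to 0.19). nkx2.2a was at 117, 218, 147 and 134 CPM and 389.6, 361 and 337 CPM (log2 1.14, SE 0.24, adjusted p = 0.0261), not called without mutant replicate 1 or 2 (up to 0.116). neurod1, a proneural-type factor kept on in endocrine cells, was at 371, 454, 377 and 291 CPM and 650.4, 742 and 728 CPM, a change of only 1.78-fold (log2 0.83, SE 0.21, adjusted p = 0.0601). It did not overlap but depended on most samples, since the call was lost without wild-type replicate 1 or 3 or mutant replicate 1, 2 or 3 (up to 0.261). sox4b, of the SOX family, was at 50.6, 21.8, 19.1 and 20.8 CPM and 76.1, 67.3 and 70.7 CPM (log2 1.26, SE 0.32, adjusted p = 0.0553), lost without wild-type replicate 2 or 3 or mutant replicate 1, 2 or 3 (up to 0.18).

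The remaining endocrine factors were not called. Levels of arxa, isl1, fev and insm1b overlapped between genotypes, with log2 fold changes of 0.12 (SE 0.28), 0.23 (SE 0.26), -0.32 (SE 0.23) and 0.12 (SE 0.29). arxa, isl1 and insm1b took either sign in the leave-one-out fits. foxo1a was at 432, 426, 371 and 349 CPM in wild types and 288, 305 and 255 CPM in mutants without overlap (log2 -0.57, SE 0.21, adjusted p = 0.214). mnx1 was at 0.581 to 1.51 CPM in wild types and 0 to 0.357 CPM in mutants (adjusted p = 0.332), and HHEX, NKX6-1, ascl1a, ascl1b, nkx6.2 and cdx4 had overlapping groups.

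**Figure D3:**
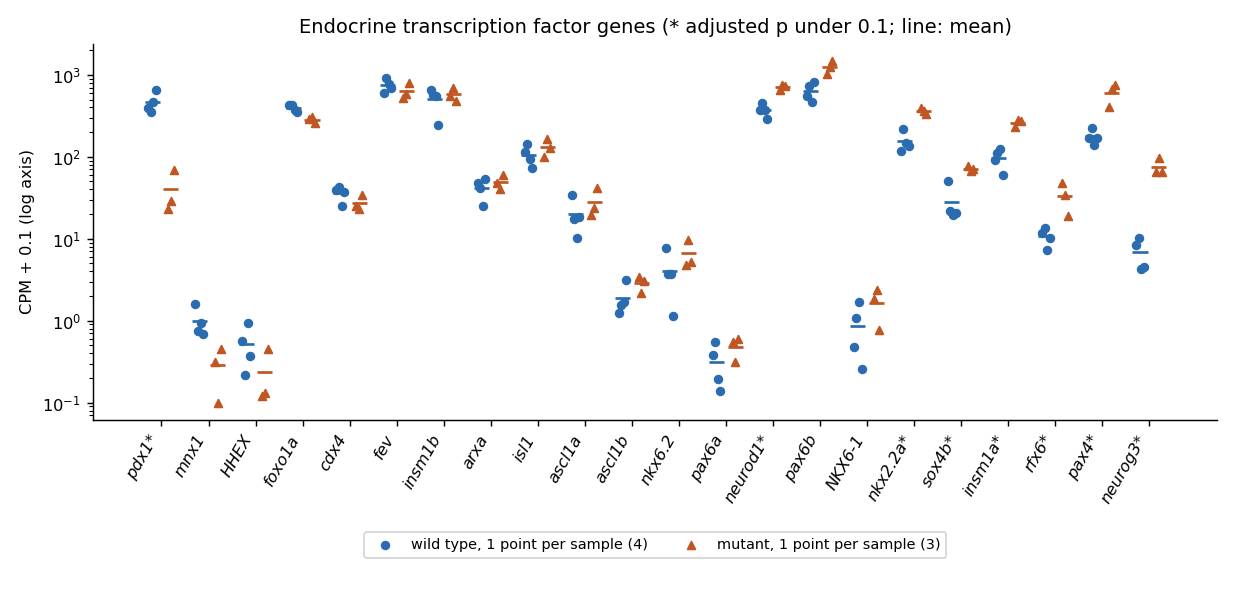
CPM + 0.1 on a log axis of the 20 listed endocrine transcription factor genes with pax6a and neurog3 added, 1 blue circle for each wild-type sample (4) and 1 orange triangle for each mutant sample (3), lines at the means and asterisks on genes called at an adjusted p under 0.1. pdx1 at the left is the called fall, and neurod1, nkx2.2a, sox4b, insm1a, rfx6, pax4 and neurog3 are the called rises.

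Over the wider families of transcription factors, 14 of 386 tested genes rose and 16 fell (7.77% called, against 4.21% of all genes). neurog3 (ENSDARG00000016951), the factor that starts endocrine differentiation in mouse gut and pancreas, had the smallest p of these rises, from 8.27, 10.03, 4.2 and 4.41 CPM to 64.8, 96.7 and 65.5 CPM. This was 10.7-fold (log2 3.42, SE 0.33, adjusted p = 1.63e-04). cebpd, a C/EBP factor of stress and metabolic responses, was at 15.6, 10.7, 12.1 and 11.4 CPM and 114, 66.2 and 35.6 CPM (log2 2.44, SE 0.35, adjusted p = 0.00245).

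Falls included 2 ETS factors that FGF signalling induces in zebrafish embryos. etv1 was at 328, 260.3, 222 and 296 CPM in wild types and at 78.5, 74 and 71.8 CPM in mutants (log2 -1.98, SE 0.24, adjusted p = 7.74e-04). etv5b was at 801, 608, 683 and 406 CPM and 199, 249 and 242 CPM (log2 -1.53, SE 0.25, adjusted p = 0.00579). lmx1ba, of the LIM-homeodomain class, fell from 203, 238, 362 and 178 CPM to 72.3, 108 and 61 CPM (log2 -1.7, SE 0.32, adjusted p = 0.0114). For all of neurog3, cebpd, etv1, etv5b and lmx1ba, the call held with any 1 sample left out.

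Of 17 tested peptide genes outside the hormone list, 2 rose and 1 fell (17.6% called, against 4.21% of all genes). pdyn (ENSDARG00000087798), which encodes the opioid precursor prodynorphin, was at 0, 0.298, 0 and 0.0774 CPM in wild types and 6.9, 6.42 and 6.87 CPM in mutants (log2 6.12, SE 1.01, adjusted p = 0.00555). adm2a, for an adrenomedullin peptide, was at 118, 98.4, 66.8 and 17.2 CPM, lowest in wild-type replicate 4, and 426, 338 and 282 CPM (log2 2.16, SE 0.46, adjusted p = 0.032), and was not called without wild-type replicate 3 or mutant replicate 1 or 2 (up to 0.128). tac1, the gene of substance P and other tachykinins, fell from 14, 24.8, 41.1 and 55.3 CPM to 3.68, 4.98 and 4.59 CPM (log2 -3.07, SE 0.47, adjusted p = 0.0036).

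Of 14 prohormone processing and granule genes tested, chga was the 1 call (7.14%, against 4.21% of all genes) and rose. chga, the granule protein chromogranin A, was at 98.2, 64.1, 46.7 and 82.3 CPM in wild types and 174, 166 and 160.0 CPM in mutants (log2 1.1, SE 0.26, adjusted p = 0.045), a call lost without wild-type replicate 2 or mutant replicate 1 or 2 (up to 0.166). scg3, for secretogranin III, was at 4654, 4604, 4499.7 and 5461 CPM and 4645, 4756 and 4865 CPM (log2 -0.12, SE 0.20). Of 36 exocytosis genes tested, 3 rose and 2 fell (13.9% called). rims2a and rims1a, for scaffold proteins of the active zone where vesicles dock, were at 612, 508 and 196 CPM and 54.5, 56.5 and 76.3 CPM in mutants. In wild types they were at 79.1, 66.8, 63.5 and 102 CPM and 18.1, 17.9, 11.9 and 11.8 CPM (log2 2.4, SE 0.36, adjusted p = 0.00311 and log2 1.97, SE 0.25, adjusted p = 0.00113). sytl2b, a synaptotagmin-like Rab effector, rose from 2.99, 5.8, 6.11 and 1.86 CPM to 39.1, 31.8 and 30.8 CPM (log2 2.93, SE 0.39, adjusted p = 0.00165). syt6a and syt5b, both synaptotagmins, were lower at log2 -3.15 (SE 0.48, adjusted p = 0.00338) and -1.33 (SE 0.32, adjusted p = 0.0416), the second not called without mutant replicate 1 or 3 (up to 0.224).

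In the enterochromaffin list, which holds genes of serotonin and other amine production and transport and the channel genes trpa1a and trpa1b, the calls were falls. Of 15 tested, 0 rose and 4 fell (26.7% called, against 4.21% of all genes), with a median log2 fold change of -0.57. tph1b, for the rate-limiting tryptophan hydroxylase, was at 121, 195, 291 and 148 CPM in wild types and 115, 86.9 and 63.8 CPM in mutants (log2 -1.19, SE 0.33, adjusted p = 0.0836). qdpra, for an enzyme that recycles the cofactor of tryptophan hydroxylase, was at 730.1, 538, 761 and 1359 CPM and 355, 394 and 275 CPM (log2 -1.43, SE 0.34, adjusted p = 0.0416). trpa1b, for an irritant-gated channel, was at 229, 545, 856 and 896 CPM and 245, 226 and 216 CPM, and wild-type replicate 1 lay within the mutant range (log2 -1.59, SE 0.41, adjusted p = 0.0653). slc18a2, the vesicular monoamine transporter, was at 4.49, 2.41, 1.1 and 2.36 CPM and 0.655, 0.12 and 0.446 CPM (log2 -2.75, SE 0.79, adjusted p = 0.0987). These calls were weak. tph1b was lost without wild-type replicate 2 or 3 or mutant replicate 1, 2 or 3 (up to 0.276), trpa1b without wild-type replicate 3 or 4 or mutant replicate 1, 2 or 3 (up to 0.218), qdpra without mutant replicate 1, 2 or 3 (up to 0.174) and slc18a2 without wild-type replicate 1, 2 or 4 or mutant replicate 1, 2 or 3 (up to 0.333). Without wild-type replicate 4, 2 of the 15 were called.

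Sensors and receptors of EECs split evenly, with 4 of 23 tested genes higher and 4 lower (34.8% called, against 4.21% of all genes). slc5a1 (ENSDARG00000013871), the sodium-coupled glucose transporter by which EECs sense sugar in mammals, fell from 37.1, 57, 82.1 and 54.2 CPM to 13.7, 7.38 and 6.47 CPM (log2 -2.75, SE 0.37, adjusted p = 0.00175). The galanin receptor gene galr1a was lower, at 6.71, 13.1, 16.2 and 14.4 CPM and 0.983, 4.11 and 1.2 CPM (log2 -2.67, SE 0.58, adjusted p = 0.027), while galr2b was higher, at 11.2, 5.54, 12.6 and 3.76 CPM and 53, 54.6 and 24.6 CPM (log2 2.34, SE 0.42, adjusted p = 0.00991). PRLR, a prolactin receptor gene, had log2 -2.28 (SE 0.48, adjusted p = 0.0264). kcnj11, the pore subunit of the ATP-sensitive potassium channel, was at 16.8, 24.5, 12.7 and 22.8 CPM in wild types and 63.1, 38.3 and 64 CPM in mutants (log2 1.41, SE 0.29, adjusted p = 0.0217). Its relative kcnj8 had log2 2.98 (SE 0.80, adjusted p = 0.0734), the taste-pathway channel gene trpm5 -3.43 (SE 0.86, adjusted p = 0.0559) and the ghrelin receptor gene ghsra 4.0 (SE 1.06, adjusted p = 0.0702), each at or below 10 CPM in every sample. Calls were lost for galr1a without mutant replicate 1 or 3 (up to 0.114), for PRLR without mutant replicate 2 (up to 0.159) and for kcnj11 without mutant replicate 1 (up to 0.103). For kcnj8, trpm5 and ghsra they were lost in 4, 5 and 5 of the 7 leave-one-out fits.

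Among ion transport genes, 2 of 36 anion transport genes rose and 4 fell (16.7% called, against 4.21% of all genes). slc4a5, a sodium bicarbonate cotransporter, was at 6.99, 13.2, 15.5 and 22.6 CPM in wild types and 1.04, 0.30 and 0.535 CPM in mutants (log2 -4.63, SE 0.59, adjusted p = 0.00123). slc26a2, a sulphate transporter, had log2 -3.38 (SE 0.59, adjusted p = 0.00816). ca6 (ENSDARG00000056499), for a secreted carbonic anhydrase, had the smallest adjusted p of all rises, going from 0.536, 0.655, 0.291 and 0.31 CPM in wild types to 63.4, 73.8 and 48.6 CPM in mutants (log2 7.0, SE 0.37, adjusted p = 8.61e-07). Of 21 genes of the sodium-potassium pump family, atp1a3a, the alpha subunit typical of neurons, fell from 184, 196, 265 and 188 CPM to 42, 51.5 and 70.7 CPM (log2 -2.04, SE 0.27, adjusted p = 0.00135). atp1a1a.5 and atp1a1a.3, close relatives whose reads may be split uncertainly between them, were higher, with 51.4, 11.6 and 3.66 CPM and 17.6, 4.02 and 1.74 CPM in mutants and at most 1.55 CPM and 0.655 CPM in wild types. Mutant replicate 1 was the highest for both (log2 4.6, SE 0.87, adjusted p = 0.0238 and log2 4.99, SE 1.03, adjusted p = 0.025), and atp1a1a.3 was not called without wild-type replicate 3 or mutant replicate 1 (up to 0.188). Of 79 potassium channel genes, 3 rose and 5 fell (10.1% called), of 31 calcium channel genes 2 rose and 2 fell (12.9%), and of 350 solute carriers 9 rose and 17 fell (7.43%). kcnk18, a background potassium channel, had the smallest p of the potassium channel calls at log2 -4.67 (SE 0.81, adjusted p = 0.00766).

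Further genes were named for the size or the p of their change and not from a list. g6pca.2 (ENSDARG00000013721), for the catalytic subunit of glucose-6-phosphatase, was at 19.6, 24.1, 25.8 and 9.76 CPM in wild types and 839, 559.6 and 213 CPM in mutants (log2 4.69, SE 0.46, adjusted p = 3.11e-04). pck1 (ENSDARG00000013522), for phosphoenolpyruvate carboxykinase of gluconeogenesis, was at 4.6, 6.85, 5.01 and 7.2 CPM and 817, 267 and 32.3 CPM. Its mutant samples differed widely, with replicate 1 highest and replicate 3 lowest (log2 5.89, SE 0.98, adjusted p = 0.0262), and the call was lost without wild-type replicate 4 or mutant replicate 2 (up to 0.12). pck1 is also on the enterocyte marker list, whose summed level without pck1 was 3253 CPM in mutant replicate 1, the highest of the 7 samples, against 1759 to 2938 CPM in the others. The part of enterocyte RNA in the rise of pck1 was not tested. TXNIP (ENSDARG00000036107), for a thioredoxin-interacting protein that restrains glucose uptake in mammals, was at 29.1, 11.9, 9.28 and 10.5 CPM in wild types and at an even 285, 275 and 255 CPM in mutants (log2 4.08, SE 0.37, adjusted p = 6.99e-05). ppp1r3b, for a glycogen-targeting subunit of protein phosphatase 1, rose from 0.569, 0.387, 0.226 and 1.08 CPM to 15.8, 16.2 and 10.7 CPM (log2 4.55, SE 0.55, adjusted p = 7.74e-04).

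Other large or well-supported rises were of varied function. kctd12.2, an auxiliary subunit of GABA-B receptors in mammals, was at 15.6, 18.1, 15.2 and 10.9 CPM and 108, 101 and 114 CPM (log2 2.76, SE 0.23, adjusted p = 3.51e-05). tmprss13b, a membrane serine protease, rose from 2.41, 1.25, 1.91 and 1.32 CPM to 46.2, 38.8 and 26.8 CPM (log2 4.34, SE 0.36, adjusted p = 3.51e-05). pbxip1b, for a partner of PBX proteins, was at 169.5, 164, 177 and 139 CPM and 876, 724 and 618 CPM (log2 2.09, SE 0.22, adjusted p = 3.11e-04). tdgf1, the Nodal co-receptor of the zebrafish embryo, and GULP1, an engulfment adaptor, were under 1 CPM in all wild types and at 6.32, 11 and 10.2 CPM and 8.58, 14.8 and 11.1 CPM in mutants. yjefn3, cbln2a, alx1, map1lc3cl and an automatically annotated signal recognition particle RNA were also among the 15 largest rises of genes with a gene name, each below 1 CPM in wild types. The calls of alx1 (without mutant replicate 1), cbln2a (mutant replicate 1 or 2) and map1lc3cl (mutant replicate 1 or 2) were lost, with adjusted p up to 0.203, 0.133 and 0.198.

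Genes with a large fall or a small p were of varied function as well. ldb3a (ENSDARG00000056322), for a PDZ and LIM domain protein of the muscle Z-disc, had the smallest adjusted p of all falls, at 248, 209.6, 289.7 and 173 CPM in wild types and 6.21, 6.84 and 8.43 CPM in mutants (log2 -5.11, SE 0.30, adjusted p = 1.62e-06). Muscle and mesenchyme markers as a list had no called member, with sums of 6.2 to 20.4 CPM in wild types and 5.04 to 60.2 CPM in mutants. calb2a, for the calcium buffer calretinin, was at 5.8, 16.3, 12.1 and 9.76 CPM and 0.193, 0 and 0.0446 CPM (log2 -6.95, SE 0.81, adjusted p = 6.79e-04). mctp1a, of a family of membrane proteins with C2 domains, was at 13.4, 30.8, 38.8 and 37.8 CPM and 1.12, 0.48 and 0.134 CPM (log2 -5.72, SE 0.65, adjusted p = 6.74e-04). olfm1b, for a secreted olfactomedin, fell from 103, 82.4, 57.9 and 132 CPM to 9.12, 4.77 and 9.63 CPM (log2 -3.7, SE 0.37, adjusted p = 2.17e-04). ctnnd2b, for the adhesion protein delta-catenin, was at 23.8, 30.4, 26 and 19.9 CPM and 4.68, 4.44 and 3.75 CPM (log2 -2.63, SE 0.31, adjusted p = 7.03e-04). ms4a17a.10 and ms4a17a.12, from a cluster of near-identical membrane protein genes whose counts are uncertain for that reason, were at 0.54, 0.39 and 1.38 CPM and 0.0193, 0.060 and 0 CPM in mutants against 42.6 to 61.4 CPM and 1.73 to 4.54 CPM in wild types. opn8c, an opsin gene, and wnt7bb, a WNT ligand gene, had log2 fold changes of -5.9 (SE 0.95) and -5.66 (SE 1.14) at wild-type levels of 1.26 to 11.7 CPM and 0.323 to 5.3 CPM. The genes ahsg2, wipf1a, angpt2b and her4.1 had 0 counts in all 3 mutants, so their levels were at least 14.8-fold, 7.71-fold, 6.76-fold and 5.32-fold lower than the wild-type means when each mutant library is set to its 3-count floor. Wild-type replicate 3 was highest for ahsg2, and without it that bound was 4.97-fold. The call of angpt2b was lost without mutant replicate 1 or 2, and those of the other 3 were lost or could not be tested in 6 of the 7 leave-one-out fits.

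Proliferation genes were low in these cells, and 3 of 20 cell cycle genes tested fell while 0 rose (15% called, against 4.21% of all genes). mki67, the proliferation antigen Ki-67, was at 26.3, 20.8, 31.8 and 28.3 CPM in wild types and 3.59, 2.04 and 2.72 CPM in mutants (log2 -3.37, SE 0.35, adjusted p = 2.95e-04). ccne2, for a cyclin of the G1 to S transition, was at 25.7, 18.5, 48.7 and 13 CPM and 5.36, 4.47 and 4.01 CPM (log2 -2.61, SE 0.44, adjusted p = 0.00669). tyms, for thymidylate synthase, had log2 -1.88 (SE 0.41, adjusted p = 0.0296), not called without mutant replicate 1 or 3 (up to 0.135). The other 17, among them PCNA and the MCM helicase genes, were not called, and the median of the list was -0.063.

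In the Notch list, dll4, a ligand, rose from 256, 263, 317 and 173 CPM to 616, 607 and 485 CPM (log2 1.09, SE 0.24, adjusted p = 0.0299), and was lost without mutant replicate 1 or 2 (up to 0.162). The receptor gene notch2 and the target gene her4.1 fell, which makes 3 calls of 16 tested (18.8%), and notch2 was lost without wild-type replicate 2 or 3 or mutant replicate 1, 2 or 3 (up to 0.314). The call of her4.1 rests on at most 29 counts in any sample, and was lost or could not be tested in 6 leave-one-out fits. Of 23 immediate early genes, which respond to stimulation and cell handling, 3 rose and 0 fell (13.0% called, against 4.21% of all genes). Of the 23, 14 had a log2 fold change above 0, and DESeq2 called 4 higher and 1 lower. socs3a was at 286, 441, 233 and 366 CPM and 1062, 801 and 816 CPM (log2 1.33, SE 0.25, adjusted p = 0.0129), junbb had log2 1.32 (SE 0.29, adjusted p = 0.027) and egr4, with overlapping groups, 1.12 (SE 0.31, adjusted p = 0.0882). junbb was not called without mutant replicate 3 (up to 0.137) and egr4 not without wild-type replicate 1, 3 or 4 or mutant replicate 2 or 3 (up to 0.362). No ER stress gene (18 tested), cytosolic ribosomal protein gene (83) or mitochondrial transcript (13) was called.

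Published marker lists of pancreatic endocrine subtypes, taken from the study's supplement, where they were applied to pancreatic cells, were also followed in EECs. Shares called are to be read beside 4.21% of all genes tested. Most of these markers averaged 5 CPM or more. For such genes the share in the fit with the 5 CPM filter, 758 of 10650, is the closer comparison. Of 42 epsilon (ghrelin) cell markers tested, 8 rose and 1 fell (21.4% called), with a median of 0.31. The rises with the smallest p were ca6, mlnl, ghrl and pdyn, and the fall was kng1, a kininogen gene, at 12.5, 22.9, 15.9 and 18.1 CPM and 2.1, 0.63 and 3.3 CPM (log2 -3.24, SE 0.51, adjusted p = 0.00383). Of 50 pan-endocrine markers, 10 rose and 3 fell (26.0% called), with a median of -0.067. They include rims2a, adm2a, junbb and pik3ip1, an inhibitor of PI3 kinase, at 90.4, 76.1, 102 and 84.2 CPM and 201, 184 and 207 CPM (log2 1.05, SE 0.22, adjusted p = 0.0224, not called without mutant replicate 1, where it was 0.105). Alpha cell markers gave 5 rises and 3 falls of 45 (17.8% called, median -0.23). The gelsolin relative scinlb was at 458, 378, 448 and 560.3 CPM and 1274, 1152 and 1056 CPM (log2 1.22, SE 0.23, adjusted p = 0.0127), and gcgb and etv5b were among the falls. Delta cell markers gave 4 rises, sst2 and kctd12.2 among them, and 4 falls of 46 (17.4% called, median -0.074). Beta cell markers gave 2 rises and 2 falls of 45 (8.89% called, median -0.38), pdx1 and the hydrolase gene abhd15a being the falls. Only 8 of these 45 had a log2 fold change above 0, and without wild-type replicate 4 the list gave 2 rises and 5 falls. The calls of SPRY2, slc16a9b, odc1 and slc25a14 in the alpha list had log2 fold changes of 0.93, 1.55, 1.29 and -1.35, and SPRY2 was lost without wild-type replicate 1 or 2 or mutant replicate 1 or 2 (up to 0.332).

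**Figure D4:**
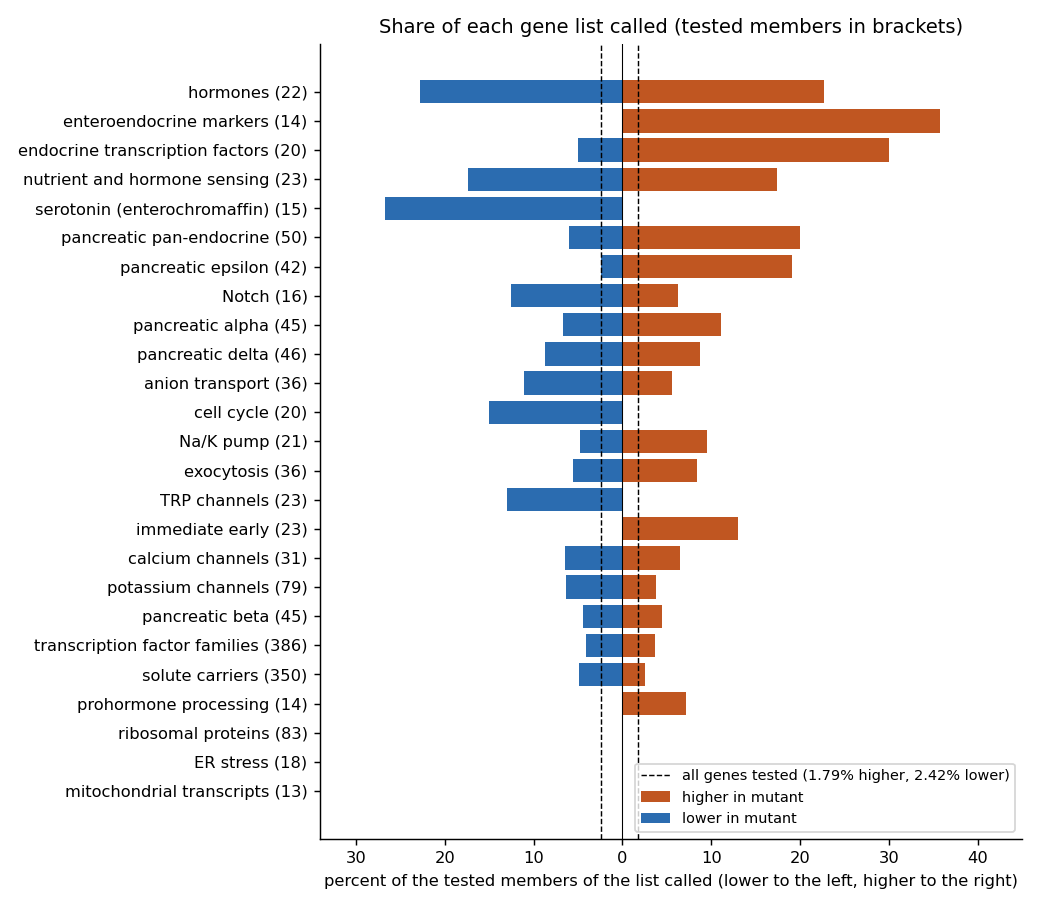
Percent of the tested members of each of 25 gene lists that were called higher (orange, to the right) or lower (blue, to the left) in mutants, with the number tested in brackets and dashed lines at the shares of all genes tested, 1.79% higher and 2.42% lower. Hormones were called in both directions in equal number, and EEC markers and endocrine transcription factors (lists that share genes) mostly higher. Serotonin, cell cycle and TRP channel genes were called lower only, with trpa1b on both the serotonin and TRP lists. Of 23 TRP channel genes, 3 were called, each lost in 5 leave-one-out fits. Of the 23, 11 had a log2 fold change above 0, and the median was -0.056.

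The 14 EEC markers, pax6b among them, gave 5 rises and 0 falls. These rises were reported above, pax4, insm1a, rfx6 and neurod1 with the endocrine transcription factors and chga with the granule genes. Some markers of other cell types were also called, and their part in the results above was not tested. Shares called, beside 4.21% of all genes tested, were 60% of 5 goblet, 33.3% of 6 tuft or ionocyte, 25.0% of 8 leukocyte, 18.8% of 16 enterocyte, 16.7% of 6 epidermal, 9.09% of 11 enteric neuron and 6.25% of 16 exocrine pancreas markers. The enterocyte markers gave 1 rise (pck1) and 2 falls, with sums of 2583 to 2945 CPM in wild types and 1791 to 4071 CPM in mutants. Their median log2 fold change was 0.95, and 11 of the 16 tested had a value above 0, most of them not called. mttp, for the lipid transfer protein of lipoprotein assembly, was at 88.3, 91.8, 69.9 and 69.3 CPM and 19.8, 2.49 and 4.68 CPM (log2 -3.23, SE 0.63, adjusted p = 0.0262), and chia.1, for a chitinase, at 8.71, 22.2, 31.6 and 49.5 CPM and 5.67, 8.13 and 3.7 CPM (log2 -2.38, SE 0.55, adjusted p = 0.0403). Of 5 goblet markers tested, agr2 and galnt6 fell and sytl2b rose, and the sums were 61.2 to 147 CPM and 74.1 to 77 CPM. Of these sums, sytl2b alone made up 1.86 to 6.11 CPM in wild types and 30.8 to 39.1 CPM in mutants. In contrast, agr2, the member with the most counts, was at 33.5 to 110 CPM and 20.9 to 29.0 CPM. Leukocyte markers summed to 61.9 to 90.1 CPM in wild types and 32.6 to 38.5 CPM in mutants without overlap, and rac2 and CORO1A fell of 8 tested. Most of this sum was rac2 alone, at 57.7 to 84.9 CPM and 30.6 to 34.2 CPM. CORO1A was at 3.06 CPM or less, highest in wild-type replicate 4. Its call was lost or could not be tested in 6 of the 7 leave-one-out fits. Exocrine pancreas markers summed to 52.9 to 251 CPM and 85.2 to 92.1 CPM, with 1 fall (CEL) of 16 and a median log2 fold change of -1.66. Epidermal markers gave 1 fall of 6, icn, at 5243, 7489.9, 3408 and 3827 CPM and 2678, 2365 and 2868 CPM. Most of this list's sum was icn alone, with sums of 3958 to 7894 CPM in wild types and 2656 to 3268 CPM in mutants. The median log2 fold change of the list was -0.11. Tuft or ionocyte markers gave 2 falls of 6, trpm5 and cftr. Of 11 enteric neuron markers only STMN2 was called, at 28.5, 17.1, 23.7 and 15.6 CPM and 7.88, 3.99 and 3.57 CPM (log2 -2.13, SE 0.39, adjusted p = 0.00995). The sum of this list was higher in mutants without overlap, at 591 to 816 CPM in wild types and 820 to 843 CPM in mutants. Its median log2 fold change was -0.27. ret, its member with the most counts, was at 273 to 459 CPM and 532 to 600 CPM but was not called (log2 0.48, SE 0.24, adjusted p = 0.393). Endothelial, erythrocyte and hepatocyte lists had no called member and summed to at most 20.3 CPM in any sample. Several of these calls were lost in leave-one-out fits, agr2 without mutant replicate 1, 2 or 3, galnt6 without mutant replicate 1 or 2, chia.1 without wild-type replicate 3 or mutant replicate 1 or 3, rac2 without mutant replicate 1, icn without wild-type replicate 1 or 2 or mutant replicate 1, 2 or 3, cftr without wild-type replicate 2 or mutant replicate 1 or 3 and CEL without wild-type replicate 1 or 4 or mutant replicate 1, 2 or 3, with adjusted p up to 0.168, 0.144, 0.197, 0.133, 0.241, 0.198 and 0.241.

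Leaving out wild-type replicate 4 gave 780 calls, 339 higher and 441 lower, of 18676 genes tested (4.18%). Of the 802 calls with all 7 samples, 651 were called again, 138 were not, and 13 were too low to be tested. A further 129 genes were called only without replicate 4, pax6b and pyya among them. All 789 refitted calls kept their direction, and their log2 fold changes moved by a median of 0.120 and at most 1.70. The hormone list then had 5 rises and 6 falls, and the endocrine transcription factors 7 rises and 1 fall. Besides trpa1b (adjusted p = 0.121) and slc18a2 (0.123), pck1 (0.12), ghsra (0.118), egr4 (0.135), CEL (0.173) and fam46c (0.141) were named genes that lost their call, and CORO1A, KCNG2, her4.1 and wipf1a were too low to be tested.

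**Figure D5:**
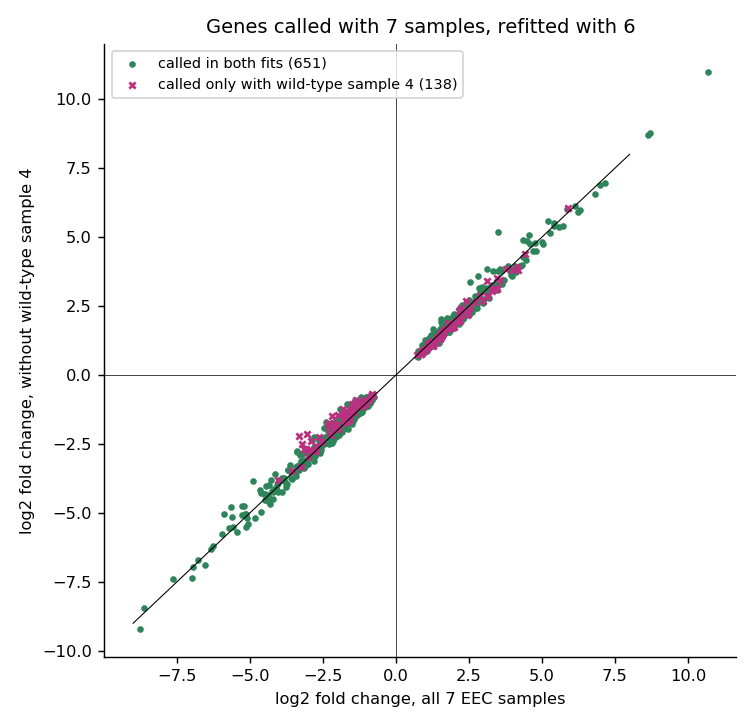
Log2 fold change (mutant over wild type) without wild-type replicate 4 against that with all 7 EEC samples, for the 789 called genes that could be tested in both fits, with 651 called in both in green, 138 called only with replicate 4 as crosses and a line of equality. All points keep their sign, and the largest difference between the fits is 1.70 on the log2 scale.

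Genes were placed by ID, or else by symbol, in the assembly GRCz12tu, which is not the GRCz11 of the counts. Only chromosome and gene order were used from it, and 14190 tested genes could be placed. Chromosome 7, which carries pax6b, had the highest share of calls, 61 of 772 tested genes (7.90%), with 25 higher and 36 lower, against 4.46% of the genes placed elsewhere. Among the 200 tested genes nearest to pax6b in order, 100 on either side, 12 (6%) were called, and among the other 571 placed there 49 (8.58%) were. calca, adcyap1a, penkb and tph1b are also on this chromosome.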

How the data were processed

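The authors trimmed the reads, mapped them with STAR 2.5.4b to GRCz11 and counted them on Ensembl release 92 genes, and deposited these unnormalized counts for each sample (paired-end reads of 100 bases, Smart-seq2 cDNA made with 13 PCR cycles, Nextera-XT). Which strand setting was counted is not given in the sources used here, so overlapping and antisense genes are uncertain. CPM is a count over all gene counts of its sample. The 7 EEC samples were fitted alone with edgeR 4.0.16 in R 4.3.3 (TMM, filterByExpr, robust quasi-likelihood F test, Benjamini-Hochberg adjustment over all genes tested, threshold 0.1), after a test on simulated data. SE is the log2 fold change over the square root of F. P-values measure the spread between these pooled preparations. No batch is labelled. Alternatives included DESeq2 1.42.0, the study's tool, other scalings and filters, a replicate block and leaving out each sample. Symbols came from the study's tables for 5831 IDs and from a reference list for 23437, and 2633 had none.

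Members, lists and named genes were chosen with earlier results of these data known. Named genes are pax6a, pax6b, the 24 hormone and 20 endocrine factor genes, the 15 largest changes and the 10 smallest p in each direction among called, non-overlapping genes with a gene name, and up to 4 called members in each direction of the other lists. A gene that this rule names is not reported here. A search of promoters for motifs was planned and not run. Figures used matplotlib 3.10.9.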

Additional observations from a re-analysis of the deposited data

Results flagged for a closer look

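Among the 4 wild-type samples of each of 166 named genes, the highest sample was set far apart from the rest by Dixon's ratio of its gap to the whole range in 11 genes. The cut-off is set for about 1 in 20 among normally distributed values. These are CPM without a log scale, and many of the genes were chosen for their change, so that rate need not hold here. Wild-type replicate 3 was that sample for sst1.1 (65.8 CPM, others 0 to 6.99), arhgap29a (4.85, others 0.31 to 0.982), atp1a3a (265, others 184 to 196) and cp (13.7, others 3.25 to 4.65). Replicate 4 was highest for CORO1A (3.06 CPM, others 0.129 to 0.52), scg3 (5461, others 4499.7 to 4654) and VIP (0.619, others 0.0323 to 0.114). Replicate 1 was highest for TXNIP (29.1 CPM, others 9.28 to 11.9) and sox4b (50.6, others 19.1 to 21.8). Replicate 2 was highest for egr4 (1282 CPM, others 659 to 765) and GULP1 (0.685, others 0.0646 to 0.0813). The 3 mutant samples were too few for this rule.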

How the results depend on the processing

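Against 802 calls (341 higher, 461 lower), DESeq2 gave 1778 (757 and 1021) and included 801 of the 802, all in the same direction. A threshold of 0.05 left 473 (192 and 281), and 1 fit of all 13 samples gave 1141, of them 514 higher. Leave-one-out fits gave 322 to 780 calls, 129 to 339 higher and 193 to 441 lower, fewest without mutant replicates 1 and 2. Without mutant replicate 3 the share of higher calls was 54.6%, beside 42.5% with all samples. RLE or upper-quartile scaling, no filter on low counts, a filter of 5 CPM and a 2-fold minimum left between 750 and 942 calls. No filter moved the median log2 fold change to -0.127 and DESeq2 to -0.171. Depth limits most the genes near the floor of 3 counts.

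Deviations from the genotype means correlated between -0.087 and 0.046 for same-numbered samples and between -0.067 and 0.141 for the others. These overlapping ranges show no pairing by replicate number. The check, on replicates 1 to 3 of each genotype, is too small to decide whether equal numbers mark a shared batch. A fit with a replicate block on replicates 1 to 3 gave 539 calls (251 higher, 288 lower), and 467 were among the 802.

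Reversals came only from values that were not called: ccka was at 0.13 with the replicate block, 0.046 with no filter, 0.00721 in the fit of 13 samples and between -0.17 and 0.12 in leave-one-out fits, gip was at 0.49 and insm1b at -0.12 with the block. In leave-one-out fits arxa went from -0.054 to 0.31, isl1 from -0.014 to 0.40, insm1b from -0.097 to 0.27, col1a1a from -1.05 to 2.16 and cp from -0.39 to 0.57. The cause was not tested. Scaling CPM by TMM moved the means of named genes by ratios between 0.917 and 1.08.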

Other observations

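Further called genes, chosen here after their values were seen, concern signals and lipid metabolism. fgf24, a fibroblast growth factor gene, was at 2.44, 6.55, 5.91 and 5.54 CPM in wild types and 0.135, 0.030 and 0.178 CPM in mutants (log2 -5.58, SE 0.76, adjusted p = 0.0018). bdnf, for a neurotrophin, was at 121, 199.8, 182 and 118 CPM and 34.8, 44.1 and 33.9 CPM, lower in each mutant (log2 -2.13, SE 0.28, adjusted p = 0.00126). crhbp, for a binding protein of corticotropin-releasing hormone, fell from 12.9, 24.8, 66.2 and 34.3 CPM to 2.51, 0.90 and 2.05 CPM (log2 -4.37, SE 0.60, adjusted p = 0.00236). nr4a3, an orphan nuclear receptor gene, was at 304, 379.9, 325 and 594 CPM and 61.1, 82.9 and 179 CPM (log2 -2.03, SE 0.38, adjusted p = 0.0122). In the other direction, pparab and pparaa, both genes of the fatty acid sensor PPAR alpha, were at 20.3, 25.5 and 7.76 CPM and 12.7, 8.97 and 8.16 CPM in mutants against 4.1, 4.43, 1.13 and 3.64 CPM and 3.61, 2.47, 3.88 and 1.63 CPM in wild types. Their log2 fold changes were 2.36 (SE 0.51, adjusted p = 0.0264) and 1.69 (SE 0.42, adjusted p = 0.0553). angptl4, an inhibitor of lipoprotein lipase, rose from 129, 63.6, 68.6 and 61.3 CPM to 346, 422 and 521 CPM (log2 2.32, SE 0.28, adjusted p = 7.88e-04).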
